A study of Homo sapiens with 12 samples.

Results

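Transcript counts of 7 genes with roles in inflammation, or lying in the same locus as such a gene, were followed in HaCaT keratinocytes, a spontaneously immortalised human skin cell line: PTGER4, TTC33, CCL28, CCL27, LRG1, TICAM1 and EBI3. They are 7 of the 61498 entries of the deposited count tables. They were chosen as prostaglandin receptor, chemokine, cytokine, adaptor and acute phase genes, and because they lie in chromosome stretches where the names in the tables and the reads behind them match. TTC33 was taken with PTGER4 because the genes overlap. Of the 7, 5 reached at least 1 CPM (counts per 1000000 counts of the library) in at least 3 libraries and were tested, while CCL27 and EBI3 did not.

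The libraries came from derivatives of HaCaT that express a short hairpin RNA against MLL1 (shMLL1), UTX (shUTX) or NRF2 (shNRF2), or a control hairpin (shControl, whose genotype is labelled WT). Each derivative was exposed to 100 µM H2O2 for 24 h, exposed to 25 µg/mL CeO2 nanoparticles for 24 h, or left untreated. All 12 combinations have 1 library each, so no combination has a replicate. The number of hairpins or clones behind a derivative is not stated. The 3 libraries of a derivative may be 1 culture line, and p-values measure the spread between libraries after derivative and treatment are fitted. MLL1 (gene KMT2A) is a histone methyltransferase linked to active promoters, UTX (KDM6A) a histone demethylase that removes a repressive mark, and NRF2 (NFE2L2) the main transcription factor of the antioxidant response.

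Keratinocytes are a source of inflammatory signals in skin. Prostaglandin E2 acts on them through receptors such as EP4, the product of PTGER4, which raises cyclic AMP. Pattern recognition by Toll-like receptors passes through adaptors such as TRIF, the product of TICAM1, to interferon and NF-kB target genes. Chemokines of epithelia, CCL27 in skin and CCL28 in mucosa, attract lymphocytes that carry the receptor CCR10.

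Libraries held 5388335 to 7670446 counts. Names in the tables could be matched to the reads in 4 stretches, on chromosomes 5, 9, 11 and 19, and in the mitochondrial genome. Of other protein-coding entries 66.7% reached 1 CPM inside the stretches and 33.1% outside, where names appear displaced, so genes there were not read by name. In the stretches and the mitochondrial genome lie 1364 entries, of which 438 were tested. The entry named KMT2A, outside the stretches, had 96.6, 34.6 and 32.9 CPM in H2O2, CeO2 and untreated shMLL1 cells, against 472, 474 and 509 CPM in shControl cells. It was also below shControl in shUTX cells, at 346, 299 and 329 CPM, and had 564, 444 and 458 CPM in shNRF2 cells. Its name is uncertain like others outside the stretches. The entries named KDM6A and NFE2L2 had at most 16 counts in any library and check little. Of 15 keratinocyte markers only AQP3 and TINCR lie in the stretches, at 197 to 406 and 5.44 to 66.0 CPM. The matched markers of other cell types, CD72, PAX5 and TEK, stayed at or below 0.789 CPM.

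The promoters of the genes that differed most between derivatives are shown first. The CXXC domain of MLL1 binds unmethylated CpG, but a link between CpG content and the differences was not tested. The windows run from 250 bases before to 50 after the RefSeq start on GRCh38.p14, with CpG dinucleotides in capitals. All 7 genes had at least 1 entry, and CCL28 had 2 starts. The windows are chr5:40679665-40679964 (plus strand) for PTGER4, chr19:4539987-4540286 (minus) for LRG1, chr5:43412342-43412641 (minus) for the first CCL28 start and chr5:43397088-43397387 (minus) for the other.
PTGER4: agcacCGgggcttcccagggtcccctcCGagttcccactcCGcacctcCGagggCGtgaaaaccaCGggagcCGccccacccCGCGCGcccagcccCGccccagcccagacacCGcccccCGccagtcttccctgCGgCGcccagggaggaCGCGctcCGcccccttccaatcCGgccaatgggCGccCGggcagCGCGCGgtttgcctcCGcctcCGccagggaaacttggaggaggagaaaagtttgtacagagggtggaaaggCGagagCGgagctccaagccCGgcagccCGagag
LRG1: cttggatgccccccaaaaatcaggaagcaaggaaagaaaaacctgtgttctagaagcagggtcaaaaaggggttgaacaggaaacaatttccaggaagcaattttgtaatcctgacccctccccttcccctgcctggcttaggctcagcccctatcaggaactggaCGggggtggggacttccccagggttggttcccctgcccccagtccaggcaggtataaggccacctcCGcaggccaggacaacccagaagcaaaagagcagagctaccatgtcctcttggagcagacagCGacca
CCL28 start 1: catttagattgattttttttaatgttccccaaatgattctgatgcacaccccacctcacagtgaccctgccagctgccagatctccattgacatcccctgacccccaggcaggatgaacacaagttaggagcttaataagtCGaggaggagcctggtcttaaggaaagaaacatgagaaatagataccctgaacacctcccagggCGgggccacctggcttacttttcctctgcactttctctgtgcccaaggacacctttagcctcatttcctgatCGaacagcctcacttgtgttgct
CCL28 start 2: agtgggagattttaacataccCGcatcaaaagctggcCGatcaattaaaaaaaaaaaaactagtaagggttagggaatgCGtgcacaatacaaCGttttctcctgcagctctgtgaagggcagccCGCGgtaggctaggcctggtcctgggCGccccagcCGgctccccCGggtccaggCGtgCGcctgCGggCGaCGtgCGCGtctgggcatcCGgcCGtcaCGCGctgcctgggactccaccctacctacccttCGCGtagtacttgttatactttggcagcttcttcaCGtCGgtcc

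The PTGER4 window held 30 CpG, more than 77.6% of the 35116 promoters in the table. The LRG1 window held 3, more than 18.2% of promoters. The CCL28 windows held 3 and 24. TICAM1, TTC33, EBI3 and CCL27 windows held 30, 28, 11 and 1, and the median promoter 14.

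Motifs were searched on both strands. In the PTGER4 window CCAAT, present in 34.6% of promoters, began 83 and 74 bases before the start, and GGGCGG, the GC box present in 45% of promoters, occurred 4 times. The LRG1 window had a STAT motif (TTCNNNGAA, in 7.66% of promoters) beginning 162 bases before the start. It also had the NF-kB consensus (in 5.91% of promoters) 76 bases before it. That consensus also occurred 120 bases before the TICAM1 start and 244 bases before the PTGER4 start. TGANTCA, the AP-1 motif found in 7.71% of promoters, was in the CCL27 and EBI3 windows. TATAAA and TGACGTCA, in 11.5% and 1.85% of promoters, were in none of the 8 windows. These are matches of letters and say nothing of binding.

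Per kilobase of exon, TICAM1 had the highest level of the 7 genes, at 75.3 ± 8.68 CPM per kb (SD, n = 12 libraries). LRG1 followed at 21.3 ± 9.83 CPM per kb and PTGER4 at 19.6 ± 13.9, spreads that include the differences between derivatives. CCL28 stood at 9.32 ± 2.76 and TTC33 at 6.69 ± 1.53 CPM per kb, and their ranges over the libraries overlap. EBI3 was at 0.276 ± 0.210 CPM per kb and CCL27 at 0. The order was not the same in every derivative. In shControl cells LRG1 averaged 25.5 ± 5.38 and PTGER4 11.7 ± 0.52 CPM per kb, without overlap. In shNRF2 cells LRG1 averaged 24.8 ± 2.05 and PTGER4 15.8 ± 1.97 CPM per kb. In shMLL1 cells PTGER4 averaged 41.1 ± 10.3 and LRG1 29.1 ± 3.30 CPM per kb. In shUTX cells CCL28 averaged 13.5 ± 0.57, PTGER4 9.87 ± 2.07 and LRG1 6.02 ± 1.55 CPM per kb (SD, n = 3 libraries).

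**Figure D1:**
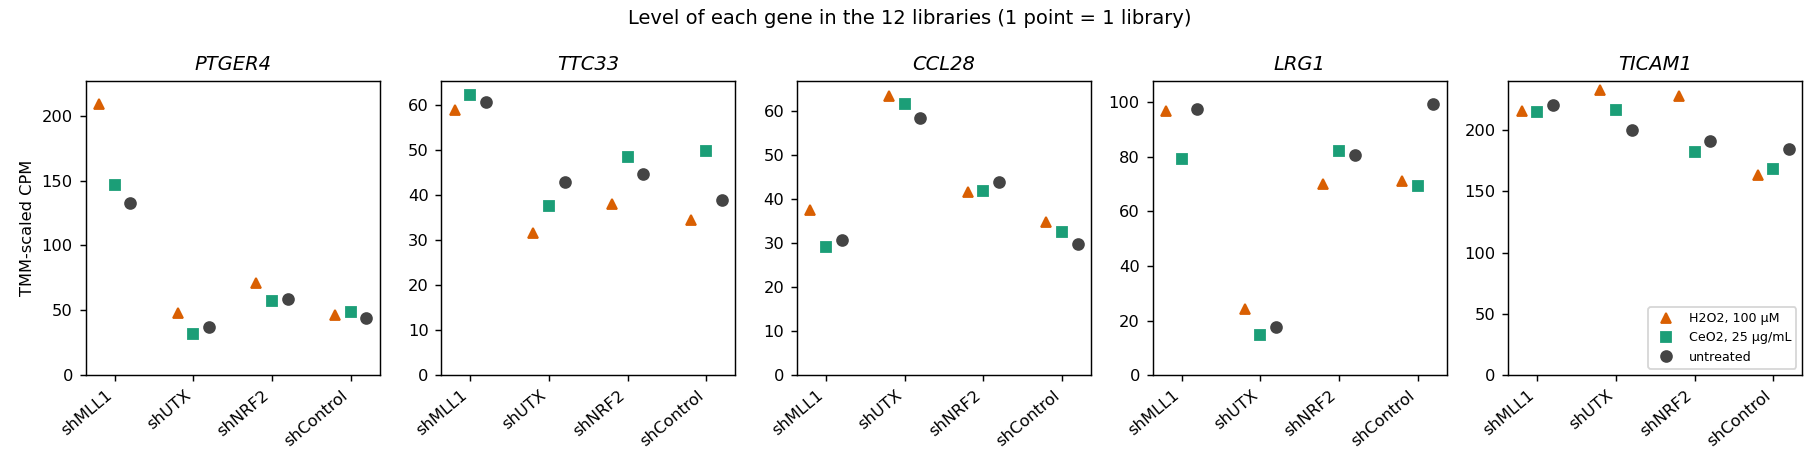
Level of the 5 tested genes in each of the 12 libraries, in CPM scaled by TMM (trimmed mean of M values), by derivative on the horizontal axis. Each point is 1 library, triangles H2O2, squares CeO2 and circles untreated. PTGER4 stands apart in shMLL1 cells at 133 to 209 CPM, LRG1 in shUTX cells at 14.8 to 24.3 CPM and CCL28 in shUTX cells at 58.4 to 63.5 CPM.

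PTGER4 (ENSG00000171522, chr5:40679498-40693735, plus strand, GRCh38) was highest in cells with the MLL1 hairpin. It had 209, 146 and 133 CPM in H2O2, CeO2 and untreated shMLL1 cells, against 46.6, 48.4 and 44.3 CPM in shControl cells. Every shMLL1 library lay above every shControl library, and the H2O2 library lay furthest above. Averaged over treatments the level was 3.44-fold higher in shMLL1 than in shControl cells (log2 1.78 ± 0.12 SE, edgeR adjusted p = 2.54e-07). In such bulk libraries a change in the number of cells that express a gene and a change in its RNA per cell cannot be told apart.

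In shUTX cells PTGER4 had 48.0, 31.9 and 37.5 CPM (H2O2, CeO2, untreated), a range that overlaps shControl. The log2 difference was -0.27 ± 0.13 (edgeR adjusted p = 0.138), and without the H2O2 shControl library the adjusted p was 0.028. In shNRF2 cells it had 71.4, 57.3 and 58.5 CPM, all above the shControl libraries. That log2 difference of 0.42 ± 0.12 missed the threshold (edgeR adjusted p = 0.0657), and passed it without the untreated or CeO2 shControl library (0.0243 and 0.0264). Between knockdowns, PTGER4 was lower in shUTX and shNRF2 than in shMLL1 cells (log2 -2.05 and -1.37) and higher in shNRF2 than in shUTX cells (log2 0.68 ± 0.13, edgeR adjusted p = 0.00119).

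TTC33 (ENSG00000113638, chr5:40512333-40755975, minus strand), a little characterised tetratricopeptide repeat gene, spans PTGER4 on the other strand. The pair share 0 exon bases in GENCODE 29. The strand setting of the counting is unknown here, so reads from introns or unannotated exons of either could fall to the other. TTC33 had 58.8, 62.2 and 60.6 CPM in H2O2, CeO2 and untreated shMLL1 cells, against 34.4, 49.7 and 38.9 CPM in shControl cells. The groups did not overlap, and the difference was smaller than that of PTGER4 (log2 0.57 ± 0.12, edgeR adjusted p = 0.0046). TTC33 had 31.5, 37.5 and 42.8 CPM in shUTX cells and 37.9, 48.4 and 44.6 CPM in shNRF2 cells, both overlapping shControl. Between knockdowns it was lower in shUTX than in shMLL1 cells (log2 -0.71 ± 0.12) and in shNRF2 than in shMLL1 cells (-0.48 ± 0.12, edgeR adjusted p = 0.0152), and that last call was lost in 5 omissions of a library.

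PTGER4 supplied 78.0%, 70.2% and 68.7% of the counts of the pair in H2O2, CeO2 and untreated shMLL1 cells, against 57.5%, 49.4% and 53.3% in shControl cells. Exact binomial 95% intervals were 75.9 to 80.1% for H2O2 and 66.1 to 71.1% for untreated shMLL1 cells, for counting error only. In shUTX cells the shares were 60.4%, 45.9% and 46.7%, and in shNRF2 cells 65.3%, 54.2% and 56.7%. Under H2O2 the share was higher than in the untreated library in 4 of 4 derivatives, by 8.98 ± 3.90 percentage points (SD, n = 4 derivatives). A two-sided exact sign-flip permutation test, chosen after seeing the data, gave p = 0.125. That is the smallest p that 4 pairs allow, so the test cannot decide. CeO2 libraries differed from untreated ones by -1.41 ± 2.34 points (exact permutation p = 0.375, n = 4).

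**Figure D2:**
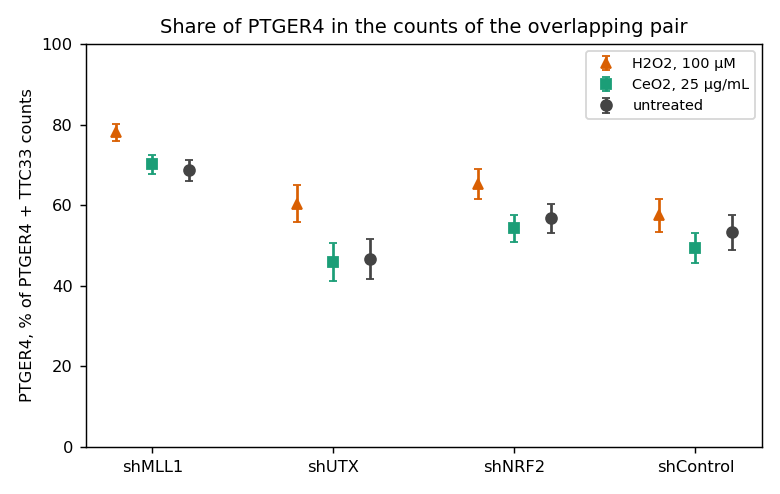
Share of PTGER4 in the summed counts of PTGER4 and TTC33, in percent, for each library by derivative. Bars are exact binomial 95% intervals for counting error. The H2O2 point is the highest of its derivative in all 4, at 78.0% in shMLL1 and 57.5% in shControl cells.

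CCL28 (ENSG00000151882, chr5:43376645-43412391, minus strand), the mucosal CCR10 ligand, was highest in cells with the UTX hairpin. It had 63.5, 61.7 and 58.4 CPM in H2O2, CeO2 and untreated shUTX cells, against 34.8, 32.6 and 29.9 CPM in shControl cells. The groups were far apart, with 304 to 391 counts in each shUTX library. The difference was 1.89-fold (log2 0.91 ± 0.11, edgeR adjusted p = 3.02e-05).

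CCL28 in shMLL1 cells, at 37.4, 29.2 and 30.7 CPM, overlapped shControl (log2 0.00 ± 0.11, edgeR adjusted p = 0.984). In shNRF2 cells it had 41.7, 41.9 and 43.9 CPM, between shUTX and shControl without overlap with either. Of all entries, 45.1% did not overlap between shNRF2 and shUTX, and 18.7% between shNRF2 and shControl. The log2 difference of CCL28 in shNRF2 from shControl, 0.39 ± 0.11, fell just short of the threshold (edgeR adjusted p = 0.0517). CCL28 was lower in shNRF2 than in shUTX cells (log2 -0.52, edgeR adjusted p = 0.00251). It was higher in shNRF2 than in shMLL1 cells (log2 0.40, 0.0299), a call lost by DESeq2 (0.0596), with no filter on low counts (0.0525), and without the CeO2 or untreated library of either derivative (0.0993 to 0.191).

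CCL27 (ENSG00000213927, chr9:34661880-34664048, minus strand), the skin CCR10 ligand, had 0 counts in all 12 libraries. A count of 0 allows up to 3 counts, or 0.381 to 0.576 CPM depending on the library. Of its 1008 exon bases, 97.7% are shared with ENSG00000261215 on the same strand. Reads over bases of more than 1 gene can be left out in counting, so the 0 says little of CCL27 transcripts.

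LRG1 (ENSG00000171236, chr19:4536409-4540474, minus strand) encodes leucine-rich alpha-2-glycoprotein, an acute phase protein. It had 24.3, 14.8 and 17.5 CPM in H2O2, CeO2 and untreated shUTX cells, against 71.0, 69.3 and 99.3 CPM in shControl cells. No shUTX library came near a shControl library, and the difference was 4.21-fold lower in shUTX cells (log2 -2.07 ± 0.16, edgeR adjusted p = 7.26e-07). LRG1 had 96.6, 79.2 and 97.5 CPM in shMLL1 cells and 70.2, 82.0 and 80.6 CPM in shNRF2 cells, both within the shControl range. The log2 differences were 0.20 (edgeR adjusted p = 0.436) and -0.02 (0.951). Against the other knockdowns too, LRG1 was lower in shUTX cells, by 2.27 on the log2 scale against shMLL1, and shNRF2 was higher than shUTX by 2.05.

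TICAM1 (ENSG00000127666, chr19:4815932-4831704, minus strand) varied least of the 5 tested genes. It had 216, 215 and 220.1 CPM in H2O2, CeO2 and untreated shMLL1 cells, against 164, 168 and 185 CPM in shControl cells. In shUTX cells it had 233, 216 and 200.02 CPM, and in shNRF2 cells 228, 182 and 191 CPM. Both shMLL1 and shUTX ranges lay above shControl, with log2 differences of 0.33 ± 0.09 in each (edgeR adjusted p = 0.0278 and 0.0168). Neither call was stable. The shMLL1 call was lost in 7 of 12 omissions of a library (adjusted p 0.0526 to 0.143). These were the omissions of any shMLL1 library, of either exposed shControl library and of either exposed shUTX library. The shUTX call was lost with only the libraries of the 2 derivatives (0.129) and without the H2O2 shControl, H2O2 shUTX or CeO2 shUTX library (0.0965 to 0.108). In shNRF2 cells the log2 difference was 0.21 (edgeR adjusted p = 0.213).

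EBI3 (ENSG00000105246, chr19:4229498-4237531, plus strand), a subunit of interleukin 27 and interleukin 35, was near the limit of detection. It had 1, 1 and 0 counts in H2O2, CeO2 and untreated shMLL1 cells, 2, 6 and 3 in shUTX cells, 4, 1 and 3 in shNRF2 cells and 3, 1 and 2 in shControl cells. No difference was detectable at this depth.

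**Figure D3:**
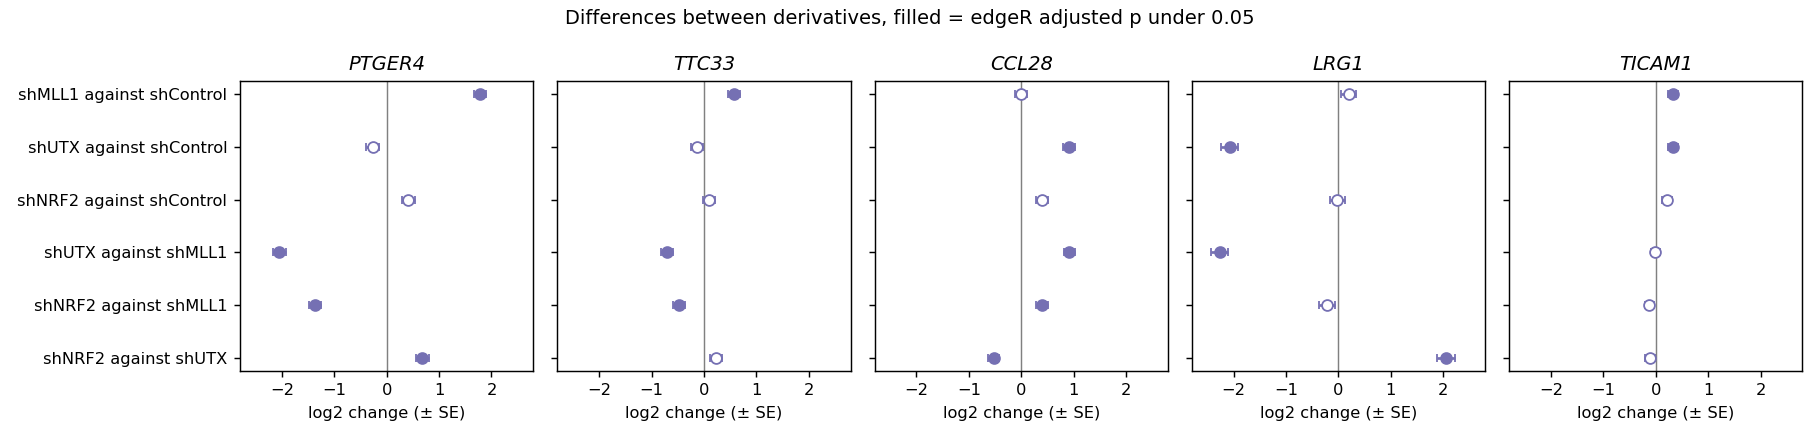
Log2 differences between derivatives for the 5 tested genes, first-named derivative over the other, with SE bars. Filled points passed an edgeR adjusted p of 0.05. PTGER4 lies at 1.78 in shMLL1 against shControl, LRG1 at -2.07 and CCL28 at 0.91 in shUTX against shControl.

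Of the 5 tested genes, 3 differed between shMLL1 and shControl (PTGER4, TTC33 and TICAM1), where 12.2% of all 10800 tested entries and 28.3% of the tested entries of the stretches did. Between shUTX and shControl 3 did (CCL28, LRG1 and TICAM1), beside 26.3% of all entries and 40.9% of those in the stretches. Between shNRF2 and shControl 0 did, beside 5.33% of all entries and 9.82% of those in the stretches, and 2172 entries had an unadjusted p under 0.05. With no filter on low counts edgeR called PTGER4 there (adjusted p = 0.023). DESeq2 and limma-voom called 0 of the 5. Between knockdowns 4 differed for shUTX against shMLL1 (18% of all entries, 38.4% in the stretches). The count was 3 for shNRF2 against shMLL1 (11.3% and 27.9%) and 3 for shNRF2 against shUTX (23.4% and 38.8%). The 3 libraries of each derivative did not overlap in 24.1%, 35.4% and 18.7% of entries for shMLL1, shUTX and shNRF2 against shControl. These comparisons share the shControl libraries, and with 5 genes a count near its background is not a result about them.

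Exposure gave no call for any of the 5 genes. In the edgeR test over the 4 derivatives, H2O2 against untreated called 0 of 10800 entries (0%), although 2102 had an unadjusted p under 0.05 and DESeq2 called 152. CeO2 against untreated called 0.0185% of entries and H2O2 against CeO2 0.037%. PTGER4 had the largest difference of the 5 genes under H2O2, log2 0.36 ± 0.11, higher in 4 of 4 derivatives (edgeR adjusted p = 0.144). With no filter on low counts it passed (0.0311). TTC33 was at log2 -0.22 ± 0.10, lower in 4 of 4 (edgeR adjusted p = 0.263).

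Within single derivatives, ratios rest on 1 library against 1 and their 95% intervals cover counting error only. For PTGER4 the ratio of H2O2 to untreated was 1.57 (1.44 to 1.72) in shMLL1, 1.28 (1.06 to 1.55) in shUTX and 1.22 (1.06 to 1.40) in shNRF2 cells. In shControl cells it was 1.05 (0.897 to 1.23). With TMM scaling the 3 knockdown intervals lay above 1 and the shControl interval held 1. With plain totals the shControl ratio was 1.18 (1.003 to 1.38), so that its interval lay above 1 as well. The ratio of CeO2 to untreated was 1.10 (1.01 to 1.21) in shMLL1, 0.850 (0.695 to 1.04) in shUTX, 0.979 (0.855 to 1.122) in shNRF2 and 1.09 (0.932 to 1.28) in shControl cells.

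TTC33 under H2O2 had a ratio of 0.971 in shMLL1, 0.734 (0.600 to 0.898) in shUTX, 0.850 in shNRF2 and 0.886 in shControl cells, where the other 3 intervals held 1. Under CeO2 its interval lay above 1 in shControl cells only (1.28, 1.08 to 1.51). TICAM1 under H2O2 had a ratio of 0.980 in shMLL1, 1.16 in shUTX, 1.19 in shNRF2 and 0.886 in shControl cells.

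LRG1 under H2O2 had a ratio of 0.991 (0.884 to 1.11) in shMLL1, 1.39 (1.06 to 1.83) in shUTX, 0.871 (0.766 to 0.989) in shNRF2 and 0.715 (0.636 to 0.803) in shControl cells. Under CeO2 the ratios were 0.812, 0.848, 1.02 and 0.698 in that order. The shControl ratios rest on its untreated library, which held the highest LRG1 level of all 12 and had the lowest TMM factor, 0.914. With plain totals the shControl log2 ratio under CeO2 was -0.33, against -0.52 with TMM. For CCL28 with TMM scaling the intervals under both agents held 1 in every derivative except shMLL1 under H2O2 (1.22, 1.005 to 1.48). With plain totals the shControl intervals of CCL28 also lay above 1, at 1.30 (1.08 to 1.58) under H2O2 and 1.25 (1.03 to 1.52) under CeO2.

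The test of whether a knockdown changed the response to exposure, pooling both agents, called 0 of the 5 genes in each knockdown. Of all entries it called 0.648% for shMLL1, 14.4% for shUTX and 16.6% for shNRF2. The largest estimates were those of LRG1, log2 0.65 ± 0.29 in shUTX (edgeR adjusted p = 0.144) and 0.43 ± 0.22 in shNRF2 (0.209). This fit has 3 residual degrees of freedom, and DESeq2 and limma-voom also called 0 of the 5.

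**Figure D4:**
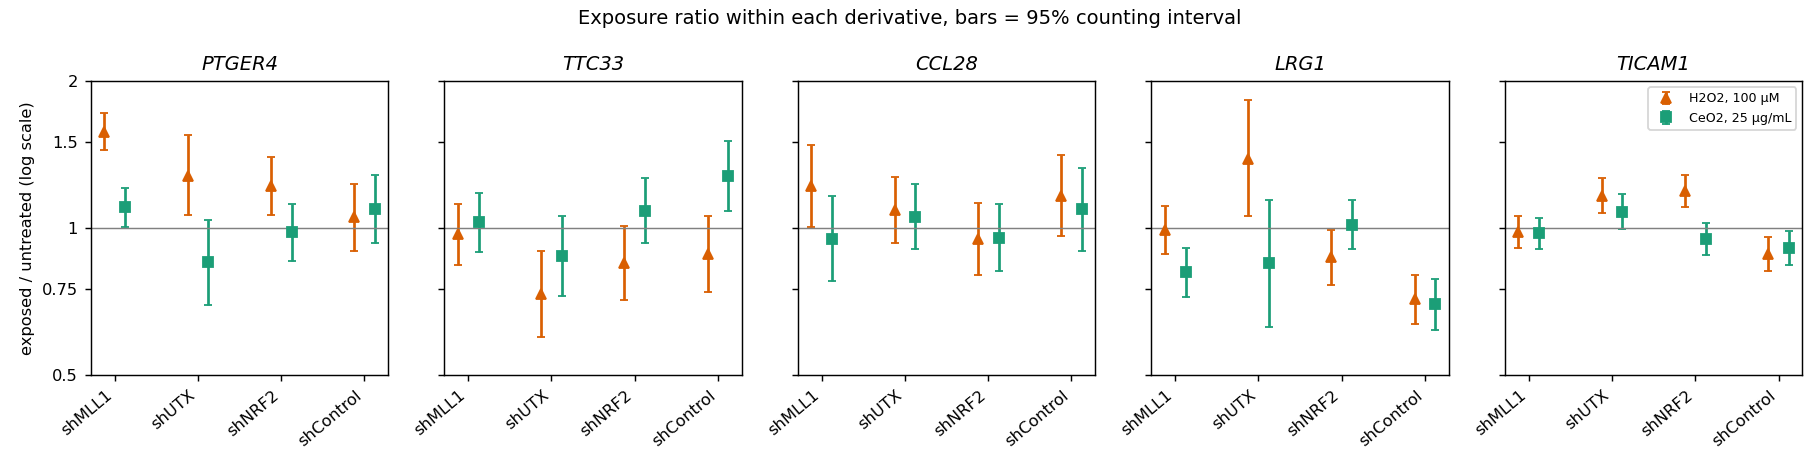
Ratio of exposed to untreated CPM within each derivative, on a log axis, with 95% counting intervals. Triangles are H2O2 and squares CeO2. PTGER4 under H2O2 lies at 1.57 in shMLL1 and 1.05 in shControl cells, and LRG1 under H2O2 at 1.39 in shUTX and 0.715 in shControl cells.

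Genes next to PTGER4 were also higher in shMLL1 cells, by less. Of 5 tested entries within 200 kb of PTGER4, 4 were higher and 0 lower, where 5.38% of all entries and 6.62% of those in the stretches were higher. TTC33 is given above, and PRKAA1, a catalytic subunit of AMP-activated kinase, was at log2 0.45 ± 0.10 (edgeR adjusted p = 0.00636). CARD6, a caspase recruitment domain protein, and the ribosomal protein gene RPL37 were at 0.32 and 0.35. The calls of CARD6 and RPL37 were lost under 10 and 13 of 20 alternative settings, and that of PRKAA1 under 1. Within 200 kb of CCL28, 2 of 10 entries were higher in shUTX cells (TMEM267, log2 0.64, and ZNF131, 0.43) and NNT-AS1 was lower (-0.27, lost under 13 of 20 settings). In that comparison 12.6% of all entries and 16.2% of those in the stretches were higher, so 2 of 10 is near the background.

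Around LRG1, 7 of 16 tested entries were lower in shUTX cells and 0 higher, where 13.7% of all entries and 24.7% of those in the stretches were lower. SEMA6B, an axon guidance gene, was at log2 -3.39 ± 0.14 (edgeR adjusted p = 5.49e-10). PLIN4, a lipid droplet protein with a mean of only 5.17 CPM, was at -2.42 ± 0.36 and TNFAIP8L1 at -1.45 ± 0.09. UBXN6 and HDGFL2 were at -0.55 and -0.47, and ENSG00000280239 and ENSG00000269318 at -0.90 and -0.72. HDGFL2 and ENSG00000269318 lost the call under 2 and 12 of 20 settings. TICAM1, at log2 0.33 in shUTX cells, has 8 tested entries within 200 kb, of which TNFAIP8L1, PLIN3 (-0.58) and KDM4B (-0.50) were lower and 0 higher.

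**Figure D5:**
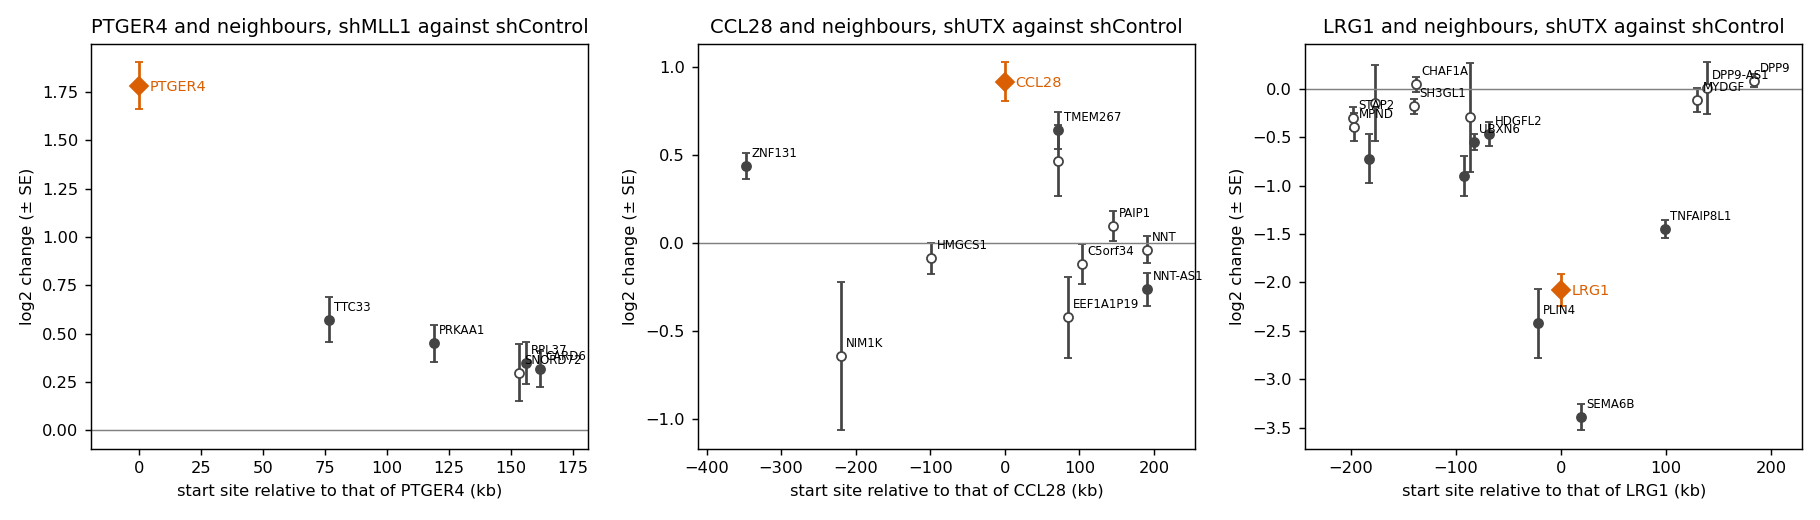
Log2 differences, with SE bars, of entries within 200 kb of PTGER4 (shMLL1 against shControl), CCL28 and LRG1 (shUTX against shControl), by distance of their start sites from that of the gene in kb. The diamond is the named gene and filled circles passed an edgeR adjusted p of 0.05. PTGER4 at 1.78 lies above its neighbours, which reach 0.57, while SEMA6B at -3.39 and PLIN4 at -2.42 lie below LRG1 at -2.07.

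Among 437 other tested entries of the stretches, the pattern over the 12 libraries most like that of PTGER4 was that of IRF7, an interferon regulatory factor. Likeness was the root mean square difference of log2 CPM centred on each gene's mean, 0.43 for IRF7 against a median of 0.86 over the pool. An entry without variation would score 0.81 for PTGER4, 0.95 for LRG1, 0.38 for CCL28, 0.31 for TTC33 and 0.16 for TICAM1. The pool medians of PTGER4 and LRG1 are thus near the score of no likeness. IRF7 had 114, 116 and 125 CPM in H2O2, CeO2 and untreated shMLL1 cells, against 49.4, 59.9 and 84.1 CPM in shControl cells. In shMLL1, shNRF2 and shControl cells IRF7 was lower under H2O2 than untreated, while PTGER4 was higher. In shUTX cells both were higher under H2O2. CCDC152 (0.48) and GRIN3B (0.54) came next, GRIN3B at a mean of only 1.29 CPM. The nearest to LRG1 were IFITM2 (0.32), TNFAIP8L1 (0.41) and RECK (0.44), with a pool median of 0.97. UBAP2 and MTRR were near to CCL28 (0.14 and 0.16), PIP5K1C, NNT-AS1 and UNC13B to TTC33 (0.21 to 0.22), and REXO1, DUS3L and MFSD12 to TICAM1 (0.08 to 0.10).

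Other genes of the same pathways in the stretches were read from 5 lists, which hold the members too. The lists were chosen with earlier results of these data known, so their counts and medians are descriptions. No pathway was tested. Of 13 tested innate adaptors and regulators of interferon or NF-kB, 8 were lower and 1, TICAM1 itself, higher in shUTX than in shControl cells, with a median log2 difference of -0.68 beside 0.00 over all entries and -0.07 over those in the stretches. The share called lower was 13.7% of all entries and 24.7% of those in the stretches. The interferon-induced membrane protein genes IFITM2, IFITM1 and IFITM3 were at -1.77, -0.88 and -0.81, the RNA sensor gene RIGI at -0.92 and CARD6 at -0.68. IRF7 was at -0.47 and SIGIRR, an inhibitor of interleukin 1 and Toll-like receptor signalling, at -0.45. TNFAIP8L1, counted above near LRG1 and TICAM1, was at -1.45. The IFITM genes, IRF7 and SIGIRR lie in the same stretch, chr11:236546-842545, so their calls may not be independent. The IFITM genes are close paralogs, so the split of reads among them is uncertain. IRF7 and SIGIRR lost the call under 7 and 2 of 20 settings. In shMLL1 cells 4 of the 13 were higher (IRF7 0.89, IFITM1 0.43, TICAM1 and CARD6) and 0 lower, and in shNRF2 cells 1 was higher (IFITM1, 0.54). The share called higher was 5.38% of all entries and 6.62% of those in the stretches for shMLL1. For shNRF2 it was 2.78% and 4.11%. IFITM1 lost its call under 5 and 4 of 20 settings in shMLL1 and shNRF2 cells. CARD6 lost that in shMLL1 cells under 10 of 20, and neither TICAM1 call was stable, as given above.

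Of 5 tested cytokine receptor genes, 4 were lower in shMLL1 than in shControl cells, with a median log2 difference of -0.70 beside 0.01 over all entries and -0.10 over those in the stretches. The share called lower was 6.84% of all entries and 21.7% of those in the stretches. LIFR, the receptor of leukaemia inhibitory factor, was at log2 -1.09 ± 0.14 (edgeR adjusted p = 8.87e-05), OSMR, the oncostatin M receptor, at -0.70 and IL7R at -0.29, a call lost under 6 of 20 settings. The other was PRLR, with 0 counts in all 3 shMLL1 libraries, so that no fold is given. In shUTX cells IL7R and IL11RA were lower (-1.15 and -1.65) and PRLR higher (a call lost under 3 of 19 settings), and in shNRF2 cells 0 of the 5 differed. IL11RA and PRLR averaged only 3.37 and 1.51 CPM over the 12 libraries, against 460 CPM for IL7R. For shUTX 13.7% of all entries and 24.7% of those in the stretches were lower, and 12.6% and 16.2% higher. For shNRF2 5.33% and 9.82% were called. Among 4 tested genes of prostanoid and lysolipid receptors and their partners, PTGER4 was the 1 higher in shMLL1 cells. GNA15, a G protein subunit, was the 1 lower in shUTX cells (-0.50). List medians were 0.20 and -0.39, beside -0.10 and -0.07 over the entries in the stretches. The share called higher in shMLL1 cells was 5.38% of all entries and 6.62% of those in the stretches. The acute phase and complement list had 4 tested entries: LRG1, SELENOP, C1QTNF3 and CIRBP, an RNA-binding protein of the cold response. LRG1 and CIRBP (-0.51) were lower in shUTX cells, with a list median of -0.87 beside -0.07 in the stretches. That median lies midway between CIRBP and SELENOP, which was at -1.23 and not called (edgeR adjusted p = 0.0628). SELENOP and C1QTNF3 averaged only 2.10 and 0.803 CPM over the 12 libraries, so the list median says little. C6, C7 and C9 did not pass the filter, so this list says little of complement. SELENOP, a selenium carrier, was higher in shNRF2 cells (1.67, lost under 1 of 19 settings), where 2.78% of all entries and 4.11% of those in the stretches were. CCL28 was the only tested chemokine, with CCL19 and CCL21 at 0 in all 12 libraries.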

How the data were processed

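RNA from 12 HaCaT libraries was sequenced after TruSeq preparation. The values used are whole-number counts per gene, as the authors deposited them in a table for H2O2 and another for CeO2. Both tables repeat the untreated libraries, for which the H2O2 table was used. The tables differ in 1 cell. Trimmomatic 0.39, HISAT2 2.2.1, SAMtools 1.12, HTSeq 0.11.1 and GRCh38 are named in the submitters' processing notes. The annotation and strand setting of the counting are not stated there.

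Identifiers were matched to symbols and to GENCODE 29 coordinates. Stretches where names and reads match were rebuilt from a panel of 551 genes chosen as widely expressed, as runs of neighbouring panel genes at 30 CPM or more. Of the panel 118 reached that level and 358 were under 1 CPM. All 7 genes lie inside the runs. The 10800 entries that reached 1 CPM in 3 or more libraries were fitted with edgeR 4.0.16 (quasi-likelihood, TMM, R 4.3.3) on derivative plus treatment, with 6 residual degrees of freedom and Benjamini-Hochberg adjustment over all of them. A knockdown by exposure model gave the changed response. CPM in the text are TMM-scaled. Alternatives used DESeq2 1.42.0, limma-voom (limma 3.58.1), other scalings and filters, and each library left out. The fits were tested on simulated data.

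Genes named beside the 7 are neighbours within 200 kb, the 3 entries most alike in pattern, and called genes of 5 pathway lists. One such entry is not reported here. The 7 genes and the lists were chosen with earlier results of these data known. The PTGER4 share test was chosen after seeing the data. Intervals and the limit of 3 counts behind a count of 0 cover counting error only. Promoters are from RefSeq.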

Additional observations from a re-analysis of the deposited data

Results flagged for a closer look

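The response of LRG1 to H2O2 had opposite directions in different derivatives. Its ratio to untreated was 1.39 in shUTX cells, against 0.871 in shNRF2 and 0.715 in shControl cells, with counting intervals on opposite sides of 1. TICAM1 showed the same kind of difference, with ratios of 1.16 in shUTX and 1.19 in shNRF2 cells, against 0.886 in shControl cells. Each ratio compares 1 library with 1, so the difference under H2O2 alone was not tested. The test that pools H2O2 with CeO2 called neither gene (edgeR adjusted p = 0.144 for LRG1 and 0.165 for TICAM1 in shUTX, 0.209 and 0.29 in shNRF2). With plain totals the TICAM1 log2 ratio in shControl cells was -0.01 under H2O2 in place of -0.17, so its direction there rests on the scaling of the untreated shControl library.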

How the results depend on the processing

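Of the 16 differences between derivatives called for the 5 tested genes, 12 kept their call under all 20 alternative settings and 4 lost it under some, and no call changed sign. The lost calls are both of TICAM1 and those of TTC33 and CCL28 in shNRF2 against shMLL1. With no filter on low counts, 1 gene (PTGER4) was called in place of 0 for shNRF2 against shControl and for H2O2 against untreated. Leaving out each library gave 0 to 1 called genes for shNRF2 against shControl and 1 to 3 for shNRF2 against shMLL1, the 1 arising without untreated shMLL1, untreated shNRF2 or CeO2 shNRF2. TTC33 there had adjusted p of 0.0554 to 0.109 in 5 omissions. With plain totals the shControl log2 ratios of TICAM1 were -0.01 under H2O2 and 0.06 under CeO2, and that of LRG1 under CeO2 -0.33.

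Counts over all entries moved more. The shNRF2 calls numbered 576, 907 with no filter, 154 with only the compared libraries and 257 to 830 with a library left out. The shMLL1 calls numbered 1320, and 667 to 1941 with a library left out. The shUTX calls numbered 2842, and 1427 with only the compared libraries. For H2O2 they numbered 0, with 651 without a filter, 152 by DESeq2, 3 with only the compared libraries and up to 43 with a library left out. For CeO2 they numbered 2, with 543 without a filter and 44 by DESeq2.

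No paired analysis by replicate number was possible because the labels give none. Derivative is a term of the fits, and the PTGER4 share test pairs libraries by derivative. EBI3 was below what this depth can compare.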
